A study of Mus musculus with 4 samples.

Results

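Small nucleolar RNA (snoRNA) genes were examined on expression arrays of mouse microglia, the resident macrophages of the brain. Members were all genes with a symbol beginning Snord or Snora followed by a digit, read from probe sets that carry that symbol alone, and where a symbol had more than 1 probe set the brightest was used. This gave 62 genes, 44 of the box C/D family (Snord) and 18 of the box H/ACA family (Snora), of 30145 genes with a symbol of their own on the array. A further 42 probe sets list a snoRNA together with other genes and were left out, because their signal cannot be assigned to one of them.

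The cells came from whole brain of male mice of the strain C57BL/6J, given either PBS as controls or OVA as the allergy group, and were taken 1 day after an intranasal challenge. The mice were at postnatal day 30 (P30) or 70 (P70), so the groups were PBS at P30, OVA at P30, PBS at P70 and OVA at P70. Per the series' design text, material of 4 samples was pooled for each group, and each group was read on 1 array. There were no replicates and no spread within a group, so no difference below was tested, and the number of arrays limits the precision. A level is the log2 of the deposited intensity, and a difference is one array's level minus another's. A difference of at least 1.5-fold was counted, which on the log2 scale is 0.585.

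SnoRNAs are short noncoding RNAs of the nucleolus that pair with ribosomal RNA. Box C/D snoRNAs guide 2′-O-methylation by fibrillarin and box H/ACA snoRNAs guide pseudouridylation by dyskerin, while a few, such as Snord118 (U8), Snord13 (U13), Snord14 (U14) and Snora73 (U17), take part in cutting or modifying the precursor of ribosomal RNA. In mammals most are released from introns of host transcripts, many of which encode ribosomal proteins or are spliced noncoding RNAs.

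A host is here the gene whose RefSeq span holds the snoRNA, with strand not considered. Of the 62 genes, 59 lay in a host. Ribosomal protein genes held 18 of them, other protein-coding genes 30 and long noncoding RNAs 11. Snord118, Snord13 and Snord89 lay in no other gene's span.

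Host genes of ribosomal proteins and of snoRNAs are known for transcripts that start within a run of pyrimidines. The starts of 7 hosts are shown here because their snoRNAs carry the results below or because their runs are the longest. Each window holds 30 bases on either side of the RefSeq start in the assembly GRCm38.p6, written 5′ to 3′ on the gene's strand, with its longest unbroken run of C or T in capitals. Where a gene had several windows, the one with the longest run was taken. Gm36220 (host of Snord104) is at chr11:106500885-106500944 on the plus strand, Rpl37 (Snord72) at chr15:5116583-5116642 on the plus strand, and Tpt1 (Snora31) at chr14:75845226-75845285 on the plus strand. Rbmx (Snord61) is at chrX:57393007-57393066 and Rpl39 (Snora69) at chrX:37085193-37085252, both on the minus strand. Rpl13a (Snord35a) is at chr7:45128716-45128775 on the minus strand, and Rpl4 (Snord16a) at chr9:64173357-64173416 on the plus strand.
Gm36220: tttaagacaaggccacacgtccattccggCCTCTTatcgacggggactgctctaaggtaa
Rpl37: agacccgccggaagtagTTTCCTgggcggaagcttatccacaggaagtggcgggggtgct
Tpt1: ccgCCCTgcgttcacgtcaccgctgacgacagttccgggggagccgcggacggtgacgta
Rbmx: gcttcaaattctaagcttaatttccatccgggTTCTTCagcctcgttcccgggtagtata
Rpl39: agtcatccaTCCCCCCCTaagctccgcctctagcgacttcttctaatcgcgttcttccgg
Rpl13a: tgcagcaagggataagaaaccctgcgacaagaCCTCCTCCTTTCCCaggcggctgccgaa
Rpl4: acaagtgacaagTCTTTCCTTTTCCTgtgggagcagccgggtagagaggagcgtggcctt

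The run was 14 bases long in Rpl13a and Rpl4, 9 in Rpl39, 6 in Gm36220, Rpl37 and Rbmx, and 4 in Tpt1. A run of at least 8 bases of C or T, on the gene's strand, was present in 11 of the 42 hosts with a RefSeq window (26.2%) and in 3 of the 9 ribosomal protein hosts among them (33.3%). The same was true of 6965 of all 27025 genes with a window (25.8%). The hosts as a group were thus close to all genes in holding such a run. The run could lie anywhere in the window, so these counts do not tell whether a transcript starts within it. The median longest run was 6 bases in the hosts and in all genes, so Gm36220 and Tpt1, the hosts of the snoRNAs with the widest differences, did not exceed it.

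The cells carried the markers of their label. All 11 measured markers of microglia were above the array median on every array, and their summed intensity was between 18.94 and 19.35 on the log2 scale. The arrays also differed in markers of other cells. At P30 the summed intensity of 12 neutrophil markers was 16.11 for PBS and 14.49 for OVA, and at P70 it was 19.76 and 19.53, with 10 of the 12 at least 1.5-fold higher at P70 in both treatments. That of 5 monocyte markers was 10.67 and 10.78 at P30 and 14.32 and 14.47 at P70. The summed intensity of 8 border-associated macrophage markers was 11.08 and 10.81 at P30 and 11.33 and 12.78 at P70, with 4 of the 8 at least 1.5-fold higher in OVA at P70 (Pf4 by 1.97 and Ms4a7 by 1.94). Ttr, a marker of choroid plexus, was higher in OVA by 1.87 at P30 and 4.12 at P70. The part of these other cells in the OVA results below was not tested. On each array 5 or 6 of the 6 measured neuron markers were not above the array median. That median, taken over all probe sets, was 7.04 for PBS and 7.05 for OVA at the earlier age, and 6.79 and 6.71 at the later one.

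SnoRNA genes spanned a wide range of levels, and more of them lay above the array median at P70 than at P30. Of the 62, 38 were above the median of all probe sets in PBS at P30, 40 in OVA at P30, 45 in PBS at P70 and 46 in OVA at P70. These are 61.3, 64.5, 72.6 and 74.2%, against 54, 53.9, 55.2 and 55.4% of all genes with a symbol of their own. Box C/D genes accounted for 27, 28, 30 and 30 of 44, and box H/ACA genes for 11, 12, 15 and 16 of 18. At P30 both families were therefore at similar shares (61.4 and 61.1% in PBS), and at P70 the box H/ACA share was the higher (68.2 and 83.3% in PBS). The array median itself was lower at P70, so a gene could pass it without a higher level: Snora16a was at 6.90 in PBS at P30 and 6.82 at P70, and Snora2b at 6.90 and 6.93.

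On all 4 arrays 35 snoRNA genes were above the array median, 25 of them Snord and 10 Snora, and 13 were above it on none, 11 of them Snord and 2 Snora. The other 14 were above it on some arrays, among them Snora73a and Snora73b, which were above it at P70 only. The length of the snoRNA in RefSeq had a median of 68 bases in Snord (28 to 221) and 120.5 in Snora (56 to 205). Length and mean level were nearly unrelated across the 62 genes (Spearman's rho 0.07), a description across probe sets that share 4 arrays and differ in probe sequence.

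**Figure D1:**
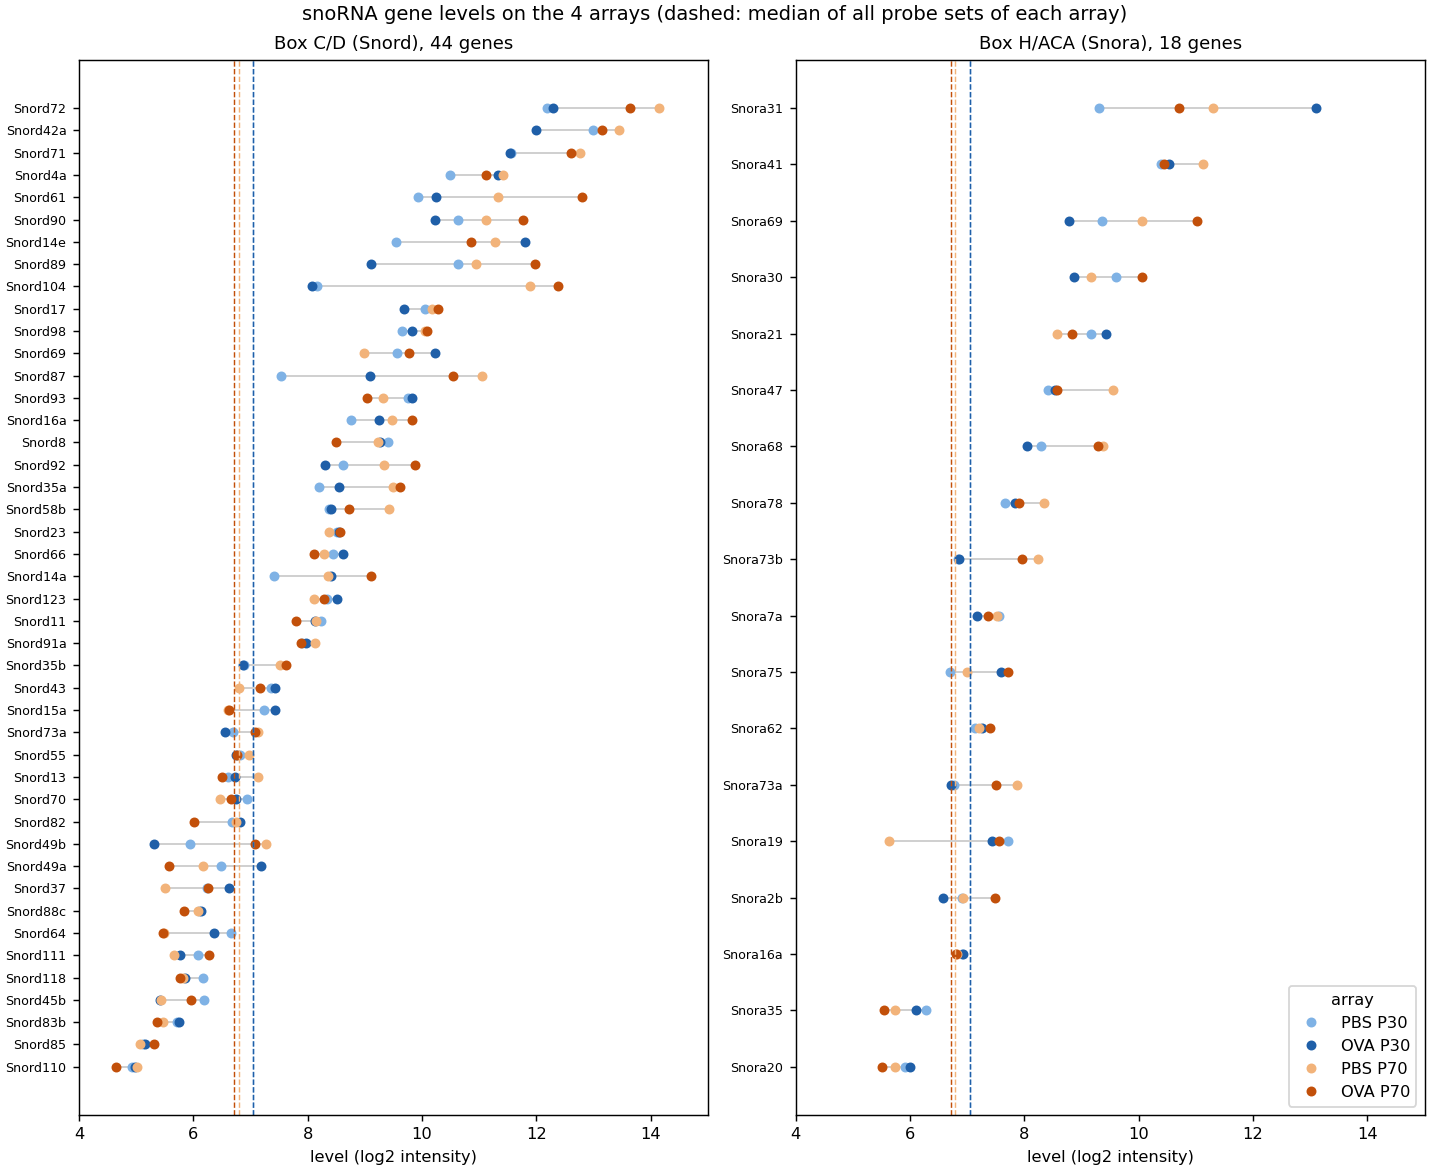
Log2 intensity of the 62 snoRNA genes (horizontal axis) on the 4 arrays, 1 gene per row, with box C/D (Snord) on the left and box H/ACA (Snora) on the right; point colours mark the arrays and dashed lines the median of all probe sets of each array. Members spread from 4.93 to 12.99 in PBS at P30 and from 5.01 to 14.15 in PBS at P70, on both sides of the array median.

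The brightest box C/D gene was Snord72, from an intron of Rpl37, which guides methylation of the large-subunit ribosomal RNA. It stood at 12.19 in PBS and 12.29 in OVA at P30, with 14.15 and 13.63 at P70. Snord42a, from Rpl23a, stood at 12.99 in PBS at P30 and at 13.45 and 13.14 at P70, with OVA at P30 the lowest of its 4 values. Snord71, from Ap1g1, stood at 11.56, 11.54, 12.76 and 12.61. These 3 genes were far above the median on every array, and each was brighter on both P70 arrays than on the P30 array of the same treatment.

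Among the box H/ACA genes the brightest by mean level were Snora31, from Tpt1, and Snora41, from the elongation factor gene Eef1b2. Snora41 was at 10.39 in PBS and 10.53 in OVA at P30, with 11.12 and 10.45 at P70, a narrow range beside that of Snora31 described below. The dimmest members were Snord110 (4.93, 4.97, 5.01 and 4.65), Snord85 and Snord83b among the Snord, and Snora20, Snora35 and Snora16a among the Snora. Snora35 lies in the serotonin receptor gene Htr2c, which neurons and choroid plexus express, and was at 6.28, 6.11, 5.74 and 5.54, below the median throughout. Snord64, the measured member of the imprinted Snrpn region, was at 6.65, 6.36, 5.49 and 5.46 and was likewise below the median on every array.

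The first comparison, stated in the series' design, set OVA against PBS at P30. Of the 62 snoRNA genes, 8 were at least 1.5-fold higher in OVA and 5 at least 1.5-fold lower, which is 12.9 and 8.06% of them. Over all genes with a symbol of their own the shares were 1.71% higher and 2.06% lower, and over all probe sets 2.97 and 2.98%, so both directions were more frequent among the snoRNA genes. The 599 miRNA genes lay between, with 7.51% higher and 3.01% lower, while among 1715 olfactory and vomeronasal receptor genes 5.25% were higher and 8.69% lower, the latter above the snoRNA share. The median difference was near zero, at 0.034 for the members and 0.004 for all those genes. The widest differences thus came from a few snoRNA genes and not from a shift of the whole group. Restricted to levels at or above the median of all probe sets, 7 and 3 of 43 snoRNA genes passed, against 1.36 and 2.42% of genes.

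Snora31, a box H/ACA RNA from an intron of Tpt1 that guides pseudouridylation of ribosomal RNA, differed most. Its level at P30 was 9.31 for PBS and 13.10 for OVA, and at P70 it was 11.30 and 10.70. The OVA array at P30 was the highest of the 4 and the PBS array of that age the lowest. The difference of 3.79 is 13.9-fold and ranked 1 among the 30145 genes. At P70 it was -0.60, in the other direction and just past 1.5-fold.

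Snord14e, a copy of the U14 RNA in an intron of the chaperone gene Hspa8, was at 9.54 in PBS and 11.80 in OVA at P30, with 11.27 and 10.86 at P70. The P30 difference was 4.80-fold and ranked 3 among the 30145 genes. As for Snora31, the PBS array at P30 stood below the other 3. U14 has several near-identical copies, so the copy that was read is uncertain. Snord14a, the copy in the ribosomal protein gene Rps13, was at 7.41 and 8.40 at P30 and at 8.36 and 9.11 at P70, higher in OVA at both ages by 1.00 and 0.75.

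Snord87, from the noncoding Snhg6 and a guide for methylation of the large-subunit ribosomal RNA, was at 7.54 in PBS and 9.09 in OVA at P30, with 11.05 and 10.54 at P70. It was 2.94-fold higher in OVA at P30, and both P70 arrays were above both P30 arrays. The other 4 past 1.5-fold upward were Snora75 (0.89), Snord4a (0.84), Snord49a (0.70) and Snord69 (0.65).

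In the other direction Snord89, for which no ribosomal RNA target is known, was at 10.63 in PBS and 9.10 in OVA at P30, with 10.94 and 11.98 at P70. It was 2.88-fold lower in OVA at P30 and 2.06-fold higher at P70. Its OVA array was thus the lowest of the 4 at one age and the highest at the other. Snord42a (-0.99), Snord45b (-0.78), Snora30 (-0.75) and Snord49b (-0.63) were also lower in OVA at P30; that of Snord49b was lost with 16 added before log2. Snora69 was at -0.58, which is 1.49-fold and just short of the limit.

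**Figure D2:**
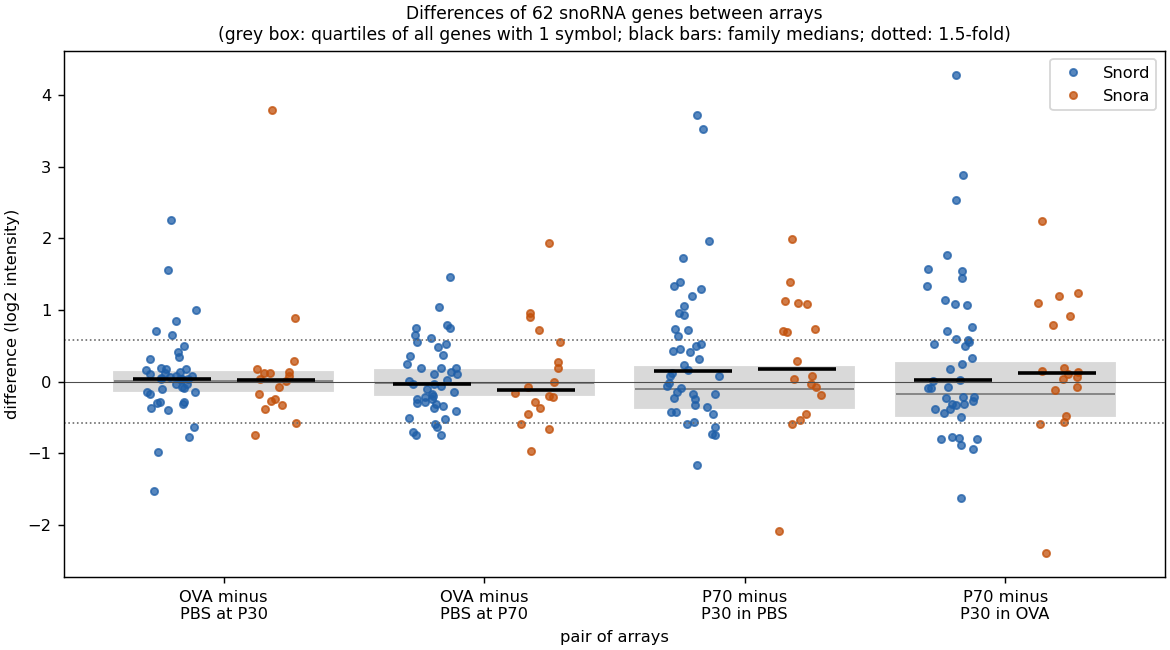
Log2 differences of the 62 snoRNA genes in the 4 comparisons, Snord and Snora apart; each point is 1 gene, black bars mark family medians, grey boxes the quartiles of all genes with 1 symbol and dotted lines 1.5-fold. At P30 most points lie near zero and Snora31 stands at 3.79; both age comparisons are wider, with Snord104 at 3.72 in PBS and 4.28 in OVA.

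The second comparison stated in the design set OVA against PBS at P70. There 11 of 62 snoRNA genes were at least 1.5-fold higher in OVA and 8 at least 1.5-fold lower (17.7 and 12.9%), against 3.13 and 5.1% of all genes with a symbol of their own and 4.06 and 8.85% of all probe sets. Among the receptor genes 5.19% were higher and 16.7% lower. Among brighter snoRNA genes the counts were 9 and 5 of 43, against 4.09 and 6.41% of brighter genes. The median was -0.052, with -0.036 in Snord and -0.123 in Snora, and -0.019 over all those genes; for all members it was 0.033 after each array was centred on its median. Of the calls, 57.9% were higher in OVA as deposited, 77.8% after that centring (14 higher, 4 lower) and 68.4% after lowess centring. Centring moved the shares of all genes as well, to 4.61% higher and 3.85% lower.

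Snora19, from the translation initiation factor gene Eif3a and a guide for the small-subunit ribosomal RNA, was at 7.72 in PBS and 7.44 in OVA at P30, with 5.63 and 7.56 at P70. The PBS array at P70 was low and the other 3 were alike, which gave a 3.81-fold higher level in OVA at P70. Snord61, from the splicing gene Rbmx, a guide for the small-subunit RNA that is sometimes used as a PCR reference, was at 9.93 and 10.25 at P30 and at 11.32 and 12.79 at P70. It was 2.76-fold higher in OVA at P70 and its level was highest on that array.

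Snora69, from the ribosomal protein gene Rpl39, was at 9.36 and 8.78 at P30 and at 10.05 and 11.02 at P70, and Snora30, from the chromatin remodeller gene Srcap, was at 9.61, 8.86, 9.16 and 10.06. Both were below PBS at P30 and above it at P70, by 0.96 and 0.90 at the later age. Snord69 (0.79), Snord37 (0.75), Snord14a (0.75), Snora75 (0.72), Snord90 (0.65) and Snord111 (0.61) made up the rest of those higher, beside Snord89 (1.04). The lower ones were Snora47 (-0.97), Snord8 (-0.74), Snord82 (-0.74), Snord58b (-0.70), Snora41 (-0.67), Snord13 (-0.63), Snora31 (-0.60) and Snord49a (-0.60). Snora47, from Zbed3, was at 8.42 and 8.53 at P30 and at 9.55 and 8.57 at P70, so the PBS array at P70 was the one that stood apart. The call for Snora31, Snora41, Snord13, Snord49a and Snord111 was lost under at least 1 other way of processing.

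The OVA differences at the 2 ages use different arrays. The sign was the same in 28 of 62 snoRNA genes and in 48.8% of all genes with a symbol of their own, and Pearson's r across them was -0.26 and Spearman's rho -0.23, a description of genes that share 4 arrays. Snora75, Snord14a and Snord69 were past 1.5-fold higher in OVA at both ages, which is 37.5% of those higher at P30 and 27.3% of those higher at P70. Over all those genes the shares were 10.9 and 5.93%, but the snoRNA shares rest on 3 genes. No snoRNA gene was past 1.5-fold lower at both ages, where over all genes 17.6% of those lower at P30 and 7.09% of those lower at P70 were, and only 5 and 8 snoRNA genes were lower. Snora31 and Snord49a were higher at P30 and lower at P70, and Snora30 and Snord89 the reverse. The share of all genes with calls in opposite directions was not counted.

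**Figure D3:**
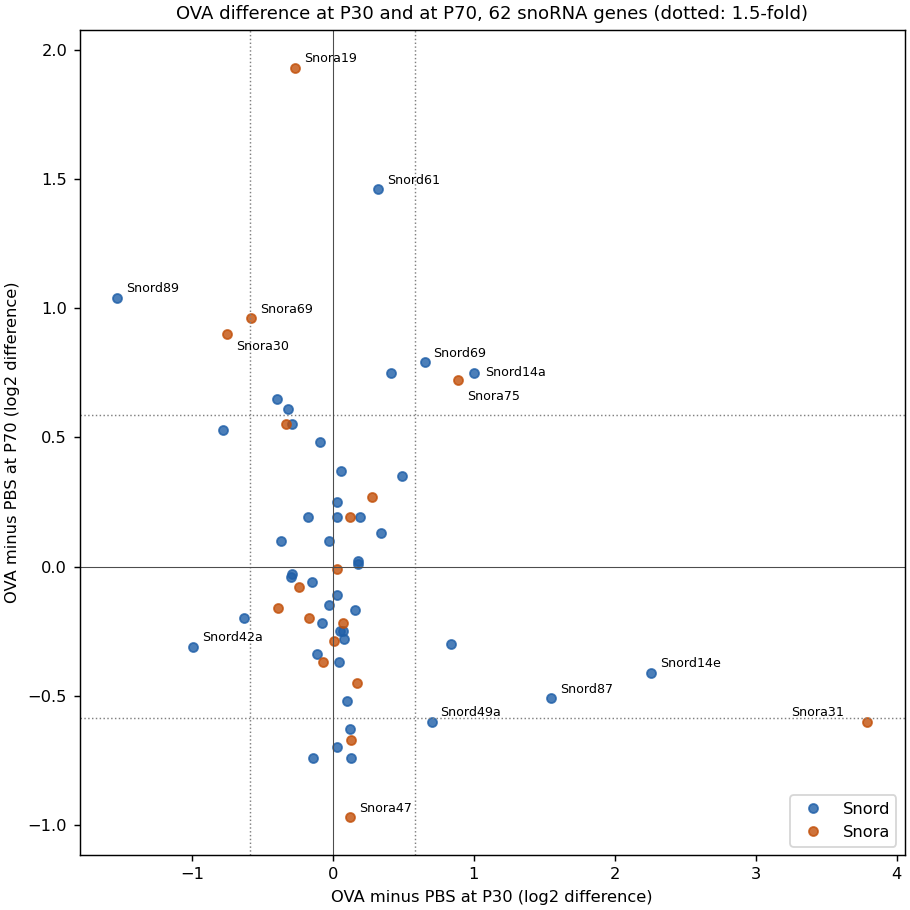
The OVA minus PBS difference of each snoRNA gene at P70 (vertical, log2) against that at P30 (horizontal, log2), with dotted lines at 1.5-fold. Snora31, Snord14e and Snord87 lie far to the right with values below zero at P70, and Snora19 and Snord61 lie high with P30 values of -0.27 and 0.32.

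Age was compared within each treatment. In PBS, 22 of 62 snoRNA genes were at least 1.5-fold higher at P70 and 7 at least 1.5-fold lower (35.5 and 11.3%), against 12.6 and 14.1% of all genes with a symbol of their own and 10.8 and 19.9% of all probe sets. In OVA, 20 were higher and 9 lower (32.3 and 14.5%), against 16 and 19.1% of genes and 12.9 and 27% of probe sets. Higher levels at P70 were thus more frequent among snoRNA genes than over all those genes, though in PBS the 92 other structural small RNA genes had a like share (33.7% higher and 13% lower as deposited, 8.7 and 9.78% after quantile normalization), and the shares lower were nearer to those of all genes. Among the 43 brighter snoRNA genes 21 were higher and 4 lower in PBS, against 22 and 15.5% of brighter genes, and 19 and 6 in OVA, against 28 and 19%.

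The median age difference was 0.140 in PBS and 0.089 in OVA for the snoRNA genes, and -0.110 and -0.168 for all genes with a symbol of their own. After each array was centred on its median these became 0.385 and 0.430 for the snoRNA genes and 0.135 and 0.173 for all those genes. The sign for all genes thus turned. Such centring moves every gene by the same amount, so the gap between the medians could not change. After quantile normalization the medians were 0.280 and 0.287 for the snoRNA genes, and 0.087 and 0.122 for all those genes. After lowess centring they were 0.263 and 0.189, and 0.070 and 0.088. The neutrophil and monocyte markers given above moved with age on the same arrays, and their part in these results was not tested. In pooled bulk RNA, fewer cells of a type and less RNA per cell cannot be told apart. As deposited, the median difference over the whole array was -0.17 within PBS and -0.26 within OVA, and after centring 0.07 and 0.08. Of the calls, 75.9% in PBS and 69% in OVA were higher at P70 as deposited, and 93.1 and 89.7% after centring, where 19.2% of all genes were higher and 7.93% lower in PBS and 25.6 and 9.16% in OVA; in PBS the share of calls was 87.5% with 16 added before log2.

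Snord104, a guide for methylation of the large-subunit ribosomal RNA, had the largest age difference of the snoRNA genes in both treatments. It was at 8.17 in PBS and 8.08 in OVA at P30, with 11.89 and 12.37 at P70. The arrays split cleanly by age, with a difference of 13.2-fold in PBS and 19.5-fold in OVA, which ranked 9 and 12 among the 30145 genes, while the treatments differed by -0.09 and 0.48. Snord87, given above, was 11.4-fold higher at P70 in PBS and 2.73-fold in OVA.

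Snord72 was 3.89-fold higher at P70 in PBS and 2.54-fold in OVA, and Snord61 2.62-fold and 5.80-fold. In all, 14 snoRNA genes were past 1.5-fold higher at P70 in both treatments, which is 63.6% of the 22 in PBS and 70% of the 20 in OVA. Over all genes with a symbol of their own the overlap was 84.7 and 66.9%, so it was not wider among the snoRNA genes in PBS and was close in OVA. They were Snora68, Snora69, Snora73a, Snora73b, Snord104, Snord14a, Snord35a, Snord35b, Snord49b, Snord61, Snord71, Snord72, Snord87 and Snord92. These include the 2 Snora73 copies and the 2 Snord35 genes, so members of a family were counted more than once. The call was lost under at least 1 other way of processing for Snora69, Snord35b and Snord92 in PBS and for Snord14a in OVA.

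Snora73a and Snora73b (U17), which act in processing of the small-subunit RNA and lie in the noncoding Snhg3, had nearly the same pattern. Snora73a was at 6.77 and 6.71 at P30 and at 7.87 and 7.50 at P70, and Snora73b at 6.84 and 6.86 and at 8.24 and 7.95. They are near-identical copies, so the 2 readings are not independent. Snord35a, in Rpl13a, was at 8.20 and 8.54 at P30 and at 9.49 and 9.62 at P70, and Snord35b at 6.89 and 6.86 and at 7.52 and 7.62. Both P70 arrays were above both P30 arrays for all 4 of these genes.

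Fewer snoRNA genes were lower at P70. Snora21, Snord15a and Snord64 were past 1.5-fold lower in both treatments. Snord64 was lower by 2.23-fold in PBS and 1.85-fold in OVA, and its host Snhg14, the long noncoding RNA of the imprinted Snrpn region, had differences of -0.75 and -0.46. Snora19 was 4.25-fold lower at P70 in PBS, where its single low array lies, and 1.08-fold higher in OVA. Of these lower calls, Snora21 and Snord15a were lost in both treatments, and Snord64 in OVA, under at least 1 other way of processing.

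For Snora31 and Snord14e the age difference had opposite signs in the treatments. Snora31 was higher at P70 in PBS by 1.99 and lower in OVA, by -2.40, and Snord14e by 1.73 and -0.94. These values follow from the levels above, with PBS at P30 low and OVA at P30 high. Over all 62 genes the age difference had the same sign in both treatments in 47, beside 82.4% of all genes with a symbol of their own, with Pearson's r 0.50 and Spearman's rho 0.55; these comparisons share no array.

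**Figure D4:**
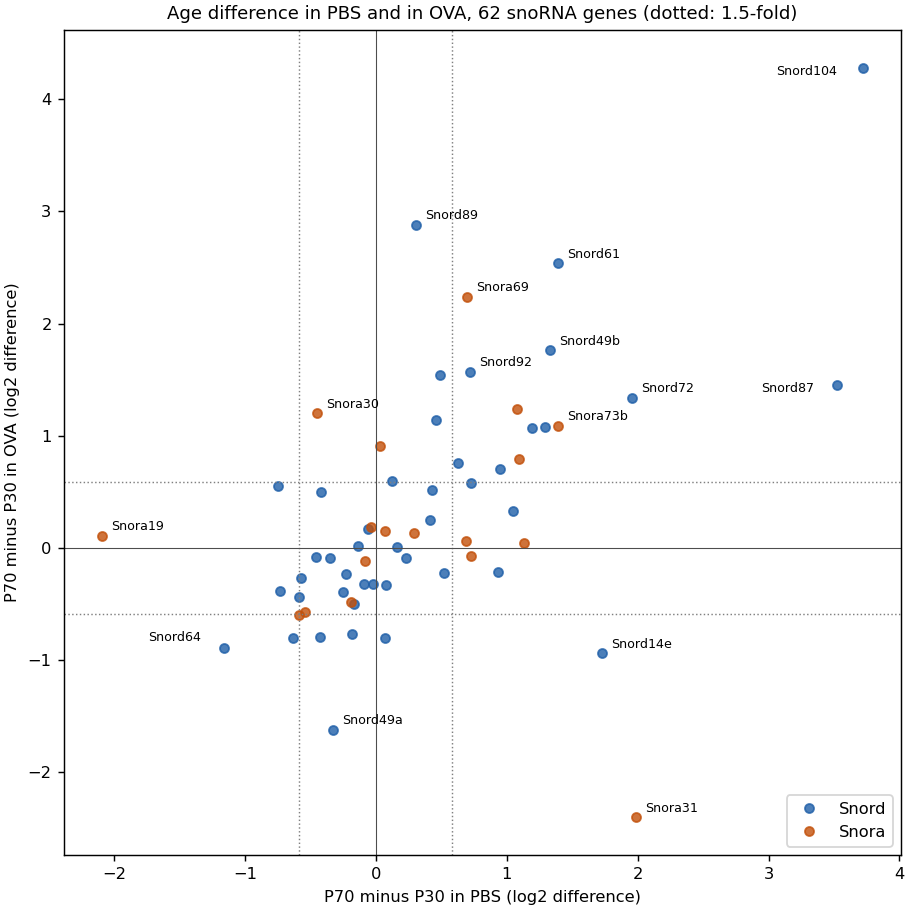
The P70 minus P30 difference of each snoRNA gene in OVA (vertical, log2) against that in PBS (horizontal, log2), with dotted lines at 1.5-fold. Snord104 lies at 3.72 and 4.28, Snord87 at 3.52 and 1.45, and Snora31 at 1.99 and -2.40.

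Of 12 snoRNAs listed for processing of ribosomal RNA precursors, 6 were measured: Snora73a, Snora73b, Snord118, Snord13, Snord14a and Snord14e. In PBS 4 of the 6 were past 1.5-fold higher at P70 (both Snora73 and both Snord14), and in OVA 3 were higher and Snord14e was lower, against 12.6% higher over all genes in PBS and 16% in OVA; Snord14a's call in OVA was lost after lowess centring. With 6 genes that include 2 sets of copies, these counts are small. Snord13, which takes part in acetylation of the small-subunit RNA, was at 6.60 and 6.72 at P30 and at 7.13 and 6.50 at P70, close to the array medians. Snord118, needed for the large-subunit RNAs, was at 6.16, 5.86, 5.81 and 5.77, below the median on every array. A second, dimmer probe set of Snord118 read 5.71, 4.74, 4.64 and 6.08, so the 2 disagree, with -0.04 and 1.43 for OVA minus PBS at P70, and no direction can be given for it. The 2 probe sets of Snord58b held the same values, although their IDs name chromosomes 14 (used) and 18. Those of Snord118 name chromosomes 11 (used) and 19.

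Of 10 snoRNAs listed as references in small RNA PCR, 3 were measured. Snord72 and Snord61 had age differences of 1.96 and 1.39 in PBS and 1.34 and 2.54 in OVA. Snord70 was at 6.93, 6.75, 6.47 and 6.66, and its widest difference was -0.46. The 3 therefore did not move alike on these arrays. As no replicate was read, how far such a reference varies between samples of one group cannot be given.

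Grouped by host, the age difference in PBS had a median of 0.541 for the 18 snoRNA genes in ribosomal protein genes, 0.686 for the 11 in long noncoding RNAs and 0.006 for the 30 in other protein-coding genes. The counts past 1.5-fold were 9 higher and 2 lower, 6 and 1, and 7 and 4, against 12.6% higher and 14.1% lower over all genes. In OVA the medians were 0.423, 0.065 and -0.028, with 7 and 2, 5 and 3, and 7 and 4, against 16 and 19.1%. SnoRNA genes of ribosomal protein hosts were thus the group with the higher median in OVA, whereas in PBS those of noncoding hosts were. After median centring the OVA medians were 0.764, 0.406 and 0.313 in the same order of hosts, and that for noncoding hosts was 0.227 after quantile normalization.

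For 32 of the 59 snoRNA genes the host was also measured by a probe set of its own, 30 hosts in all. Most of these hosts were other protein-coding genes. The only ribosomal protein hosts among them were Rpl39, Rpl4, Rps3a1 and Rpsa, and the only noncoding ones Snhg6, Snhg9, Snhg14 and Snhg18. The values below thus describe mainly the other protein-coding hosts. The median age difference of the hosts was 0.476 in PBS and 0.759 in OVA, against 0.178 and 0.089 for their snoRNAs. The host medians were 0.721 and 1.099 after median centring, and 0.344 and 0.421 after lowess centring. Median centring moves hosts and snoRNAs by the same amount, so the gap between them could not change. After lowess centring the medians of all 62 snoRNA genes were 0.263 in PBS and 0.189 in OVA. Those of the 32 alone were not taken. Host and snoRNA had the same sign in 24 of 32 in PBS and 22 in OVA, and in 17 and 23 for OVA minus PBS at P30 and P70. The counts for age were 27 and 26 after median centring and 22 and 18 after lowess centring. With age 12 hosts were past 1.5-fold higher and 1 lower in PBS, and 18 and 0 in OVA. These are 40 and 3.33% in PBS, and 60 and 0% in OVA. Among genes at or above the median level the shares were 22 and 15.5% in PBS, and 28 and 19% in OVA. After median centring 18 and 21 hosts were higher, beside 19.2 and 25.6% of all genes. After lowess centring 12 and 11 were, beside 12.8 and 15.1%. No host was lower after either centring. Like signs were not counted for snoRNA genes set beside genes other than their hosts. Pearson's r across the 32 pairs was 0.440 and 0.537 for age in PBS and OVA, and 0.306 and 0.446 for OVA at P30 and P70, as a description of pairs that share arrays and in 2 cases a host.

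Some pairs were close and others were far apart. Rbmx was higher at P70 by 1.55 in PBS and 2.23 in OVA, and its snoRNA Snord61 by 1.39 and 2.54. Rpl39 and Snora69 had the same sign in all 4 comparisons, with -0.72 and -0.58 for OVA at P30 and 1.69 and 2.24 for age in OVA. In contrast, the probe set of Tpt1 differed by 0.07 between OVA and PBS at P30 where Snora31 differed by 3.79. The mean level of that Tpt1 probe set was 7.81, beside a median of 6.90 over all probe sets and 18.59 for Hspa8. Which part of the Tpt1 transcripts it reads was not tested. Hspa8 differed by 0.51 where Snord14e differed by 2.26, and Eif3a by 0.46 with age in PBS where Snora19 differed by -2.09. Hspa8 was at 18.20 in PBS and 18.70 in OVA at P30, on arrays whose highest levels were 19.88 and 19.74. Whether so bright a probe set can show a wide difference was not tested. Snhg6 was higher at P70 by 1.21 in PBS and 1.10 in OVA, and Snord87 by 3.52 and 1.45. The pairs thus ranged from near equality to wide gaps, and Snord104, the snoRNA gene with the widest age difference, had no host with a probe set of its own.

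**Figure D5:**
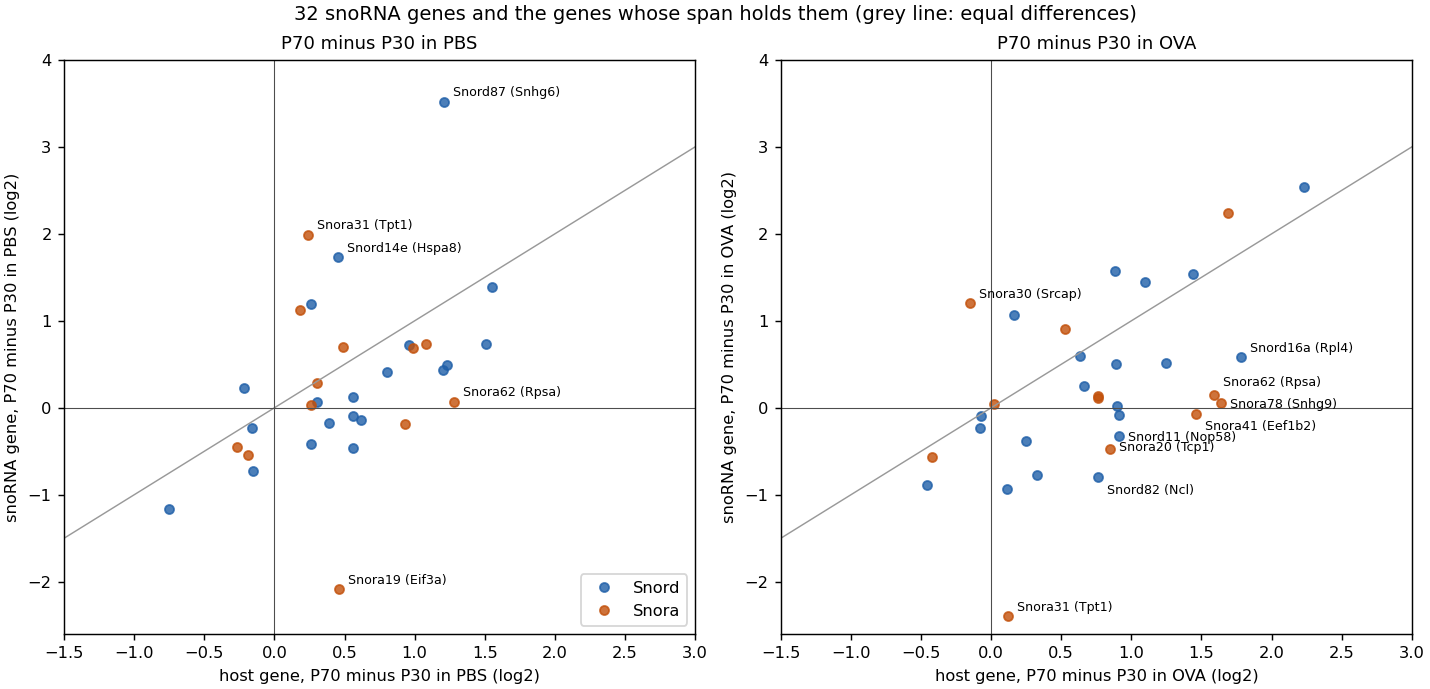
The P70 minus P30 difference of 32 snoRNA genes (vertical, log2) against that of the gene whose span holds each (horizontal, log2), in PBS and in OVA; the grey line marks equal differences. Snord87, Snora31 and Snora19 lie far from the line in PBS, at 3.52, 1.99 and -2.09, while their hosts lie at 1.21, 0.24 and 0.46.

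Pairs of snoRNA genes from a single host differed from each other in some comparisons and had like signs in others. Snord49a and Snord49b, both in the noncoding 2410006H16Rik, had age differences of -1.62 and 1.76 in OVA and OVA differences of 0.70 and -0.63 at P30. Both were dim, with mean levels of 6.35 and 6.40 beside a median of 6.90 over all probe sets. Snord42a and Snord4a, both in Rpl23a, differed by -0.99 and 0.84 for OVA at P30, and by 1.14 and -0.21 for age in OVA. Their signs were alike for OVA at P70 (-0.31 and -0.30) and for age in PBS (0.46 and 0.93). Snora75 and Snord82, both in the nucleolin gene Ncl, differed by 0.72 and -0.74 for OVA at P70, and Snord82 was below the median on every array. The pair in Rpl3 and the pair in Nop58 had like signs in every comparison but OVA at P70. Only the Snora73 copies of Snhg3, of the 6 hosts with 2 measured snoRNAs, were past 1.5-fold in the same direction in a comparison. The similarity of a pair's probes was not examined here.

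Genes of the snoRNA machinery were measured on the same arrays. They were 2 box C/D core proteins, 4 box H/ACA core proteins and 21 assembly and biogenesis factors, all at or above the median level. For OVA against PBS at P30, none was past 1.5-fold in either direction. Among all genes at that level 1.36% were higher and 2.42% lower, so a count of none in so few genes is near that share. At P70 Imp3 (0.72), a small-subunit processome protein, was higher and Shq1 (-0.98), an assembly chaperone of dyskerin, was lower in OVA. Each is 4.76% of the 21 factors, against 4.09% higher and 6.41% lower among all genes at that level. All 21 factors were at or above the median level, where 22% of genes were higher at P70 and 15.5% lower in PBS, and 28 and 19% in OVA. With age in PBS, 13 of the 21 were higher and none lower, among them Znhit3 (1.72), Tgs1 (1.16), which trimethylates the caps of snoRNAs, Shq1 (1.05) and Imp4 (0.99). In OVA 10 were higher and none lower, with Imp3 (1.61), Tgs1 (1.44), Znhit3 (1.35) and Nufip1 (1.05) the widest; the OVA count was 16 after median centring and 8 after lowess centring.

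Of the core proteins, the age differences in PBS and OVA were 0.81 and 0.50 for fibrillarin (Fbl) and 0.56 and 0.91 for Nop58, each past 1.5-fold in 1 treatment. Nhp2 was past it in both, at 1.15 and 0.81, and Nop10 in OVA, at 0.44 and 1.17. Dkc1, the pseudouridine synthase, was at 0.48 and 0.43 and Gar1 at 0.02 and -0.10, past it in neither. Of 6 measured noncoding hosts, Snhg6 (1.21) and Snhg9 (0.99) were higher and Snhg14 (-0.75) was lower at P70 in PBS. In OVA Snhg9 (1.64), Snhg5 (1.62) and Snhg6 (1.10) were higher. Over all genes 12.6% were higher and 14.1% lower in PBS, and 16 and 19.1% in OVA. The call for Snhg14 was lost after median centring, quantile normalization and lowess centring. Snhg14 was at 6.44 in PBS and 6.07 in OVA at P30, with 5.69 and 5.61 at P70, below the median on every array. For OVA at P70, Snhg9 (0.83) and Snhg5 (0.70) of these 6 were higher, against 3.13% of all genes.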

How the data were processed

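The 4 arrays were read by the submitters in 1 colour. RMA and Affymetrix Expression Console 1.4.1 are named in the submitters' processing notes. The deposited values are linear intensities that the authors had summarised to 1 value per probe set; the scaling between arrays and the genome build are not given in the sources used here, and scanner files were not used here. Log2 values were taken from the deposited intensities without normalizing them again. Of 65956 probe sets, 30604 carried 1 symbol in the platform annotation, 2146 several and 33206 none. Each symbol was represented by its brightest probe set, and 4 snoRNA symbols had more than 1. All 62 members matched a RefSeq gene (GRCm38.p6) by Entrez ID, and hosts and promoter windows come from RefSeq. The chromosome in the probe set ID was that of RefSeq for 59 of the 62, another for 1 and not given for 2.

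With 1 array per group no test was made. Named members were the 6 highest and 6 lowest in each comparison, the 8 brightest and 3 dimmest of each family, the 4 highest and 4 lowest differences between OVA effects, and fixed groups; others past 1.5-fold were named after their values were seen. The members, lists and alternatives were chosen with earlier results of these data known. Alternatives were median centring, quantile normalization, lowess centring, the mean over probe sets, a filter on dim members, 16 added before log2, updated symbols, and probe sets with several snoRNA symbols. The counting was tested on simulated data. Python 3.11.15, pandas 2.3.3, numpy 2.4.6, scipy 1.17.1 and statsmodels 0.14.6 were used.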

Additional observations from a re-analysis of the deposited data

Results flagged for a closer look

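Differences of opposite sign, each past 1.5-fold, were found for 5 snoRNA genes. They rest on 1 array per group, and the difference between the effects was not tested. How many of all genes had such opposite calls was not counted, so no excess among snoRNA genes can be stated. The OVA effect at P70 minus that at P30 was 1.65 in Snora30 (-0.75 at P30 and 0.90 at P70), 2.57 in Snord89 (-1.53 and 1.04), -1.29 in Snord49a (0.70 and -0.60) and -4.39 in Snora31 (3.79 and -0.60). The age effect in OVA minus that in PBS was -2.67 in Snord14e (1.73 in PBS and -0.94 in OVA) and -4.39 in Snora31 (1.99 and -2.40). The same 4 arrays give both contrasts, so the 2 values of Snora31 are 1 quantity. The P70 OVA call was lost under at least 1 other way of processing for Snora31 and Snord49a.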

How the results depend on the processing

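Of 272 summary values under other settings, 30 moved. The other 242 stayed within 1.5 times (counts) or 0.1 log2 units (medians) of the deposited scale. Part of these 242 could not move. Median centring, quantile normalization and adding 16 keep the order of probe sets on an array, which fixes the counts above its median. The settings on symbols moved no value at all. The share that stayed is therefore no measure of stability. A median near zero could turn its sign within 0.1 log2 units, as that for OVA at P70 did (-0.05 as deposited, 0.03 after median centring). After median centring the genes at least 1.5-fold lower were 4 for OVA at P70, 2 for age in PBS and 3 for age in OVA. The median age difference (all, Snord, Snora) was then 0.38, 0.38 and 0.43 in PBS and 0.43, 0.36 and 0.46 in OVA. It was 0.28, 0.27 and 0.39 in PBS and 0.29, 0.27 and 0.32 in OVA after quantile normalization, and 0.26, 0.25 and 0.36 in PBS and 0.19, 0.15 and 0.30 in OVA after lowess centring. With only the 43 brighter members, 3, 5 and 4 were lower (OVA at P30, OVA at P70, age in PBS), since fewer genes were counted, and the median age differences were 0.49, 0.47 and 0.69 in PBS and 0.25 (all) and 0.45 (Snord) in OVA. With 16 added, 3 were lower with age in PBS. With the mean over its 2 probe sets, Snord118 reversed to 0.69 for OVA at P70 and 0.62 for age in OVA. Beyond what the construction shows, the cause was not tested. Under every setting that gave a value, 8 of 8 higher and 4 of 5 lower calls were kept for OVA at P30, 10 of 11 and 4 of 8 at P70, 17 of 22 and 2 of 7 for age in PBS, and 18 of 20 and 3 of 9 in OVA. Updated symbols and probe sets with several snoRNA symbols moved no value.

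No paired analysis was possible because each group has 1 array, and for the same reason leaving out a replicate was not possible. The number of arrays limits the precision, and a difference between 2 arrays holds the spread between pools and between hybridisations. Detection calls were not used here, so how far the 19 members below the median level stood above background is not known. Levels of different probe sets are not comparable in abundance. Whether a probe set reads the mature snoRNA or also the unspliced host transcript was not tested.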

Other observations

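Other small RNA classes were measured on the same arrays. The 599 miRNA genes had a median of -0.341 in PBS and -0.426 in OVA, with 207 and 233 at least 1.5-fold lower at P70 and 26 higher in each. The 6 small Cajal body RNA genes, which guide modification of spliceosomal RNAs, had medians of -0.241 and 0.063. The 1715 olfactory and vomeronasal receptor genes, a class little used outside the nose, had medians of -0.512 and -0.645, and 38.3% of them were above the array median in PBS at P30 and 28.6% in PBS at P70. After median centring the medians were -0.096 and -0.085 for miRNA genes, -0.268 and -0.305 for the receptor genes, and 0.003 and 0.404 for the small Cajal body RNA genes, whose sign thus turned in PBS.

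Of 92 other structural small RNA genes, 69 are 5S ribosomal RNA copies that probe sets can hardly tell apart. Their median OVA difference was 0.087 at P30 and -0.571 at P70, where 41 of 92 were at least 1.5-fold lower in OVA, and their median age difference was 0.232 in PBS and -0.412 in OVA (0.477 and -0.071 after median centring). With age in PBS 31 were at least 1.5-fold higher and 12 lower, shares like those of the snoRNA genes, but 8 and 9 after quantile normalization; in OVA 7 were higher and 13 lower. Because these genes are near-identical copies, their count is not a number of independent readings.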
